A study of Mus musculus with 5 samples.

Results

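The comparison described here set the library labelled MCC, a myeloid-like cell complex, against the library of mouse induced pluripotent stem cells (iPSC), with 1 library on each side. Its members are all genes that reached 5 CPM (read counts scaled to the size of the library) in either library, 12442 of the 34970 gene symbols in the table. The series holds 5 RNA libraries of polyA RNA, and the other 3 are mouse embryonic fibroblasts (MEF), bone marrow (BM) and blood cells (PB). All 5 are labelled wild type, and the title of the series concerns the direct conversion of fibroblasts into macrophages. The sources used here do not give the factors and days used to make MCC, the clone, passage, medium and feeder cells of the iPSC, or the age and sex of the mice. The libraries held 47557598 counts for MCC and 43800105 for iPSC. No difference below has a replicate check, so no p-value is given. A gene was counted as higher in a library when its CPM there was at least 4-fold that in the other, with counts under 3 set to 3. The range after a fold is its exact 95% interval, which covers counting error only. A gene with 0 reads in the lower library has its fold given as a lower bound, taken against 3 counts in that library.

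Pluripotent stem cells can give rise to all tissues of the embryo. They hold this state through a small set of transcription factors that sustain one another's genes, through signals such as LIF, and in cell sheets held together by E-cadherin. They divide quickly with a short first gap phase, take up glucose at a high rate, and carry a chromatin machinery rich in DNA methyltransferases, TET enzymes and Polycomb proteins. Macrophages are phagocytes of the tissues, which depend on the receptor for CSF1 and on the transcription factor PU.1, and which carry lysosomes, Fc and complement receptors and sensors of infection. Fibroblasts make the fibres of connective tissue and many of the growth factors that other cells read.

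Of the 12442 genes, 1410 (11.3%) were higher in MCC and 1215 (9.77%) higher in iPSC, 21.1% in either direction. The remaining 9817 (78.9%) stayed within 4-fold. These shares are the background for each count below. A gene low in one library entered a list count only by being high in the other. Where most members of a list were such genes, its one-sided count was largely set by the 5 CPM minimum and gives no test of direction. Under total counts in place of the trimmed mean of M values (TMM), all ratios moved by -0.39 on the log2 scale, and 1161 genes were higher in MCC and 1613 in iPSC, so that 41.9% of the differing genes were higher in MCC in place of 53.7%. The median log2 ratio of MCC over iPSC for all genes was 0.14. Many differences were wide, with ratios of 64-fold or more for 409 genes toward MCC and 411 toward iPSC. Of the genes higher in MCC, 77 had 0 reads in iPSC, and of those higher in iPSC 154 had 0 reads in MCC. The genes higher in MCC took 21.3% of its counts against 2.02% in iPSC. Those higher in iPSC took 8.37% of the iPSC counts and 0.603% in MCC. The 15 genes with the largest counting bound toward MCC were the phagocyte genes C1qa, C1qb, C1qc, Lyz2, Tyrobp, Adgre1, Fcrls, Ctss, Ms4a6d and Wfdc17, the matrix genes Lum, Dpt and Dcn, the growth factor gene Ptn, and Agtr2, the type 2 angiotensin receptor, at 413 CPM with 0 reads in iPSC. The 15 toward iPSC were Dppa5a, Tdgf1, Esrrb, L1td1, Utf1, Sall4 and Lin28a of the pluripotent state, the epithelial genes Krt8, Krt18, Krt6a, Krt14, Cldn4 and Cldn6, the enzyme gene Tdh, and Bex1.

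**Figure D1:**
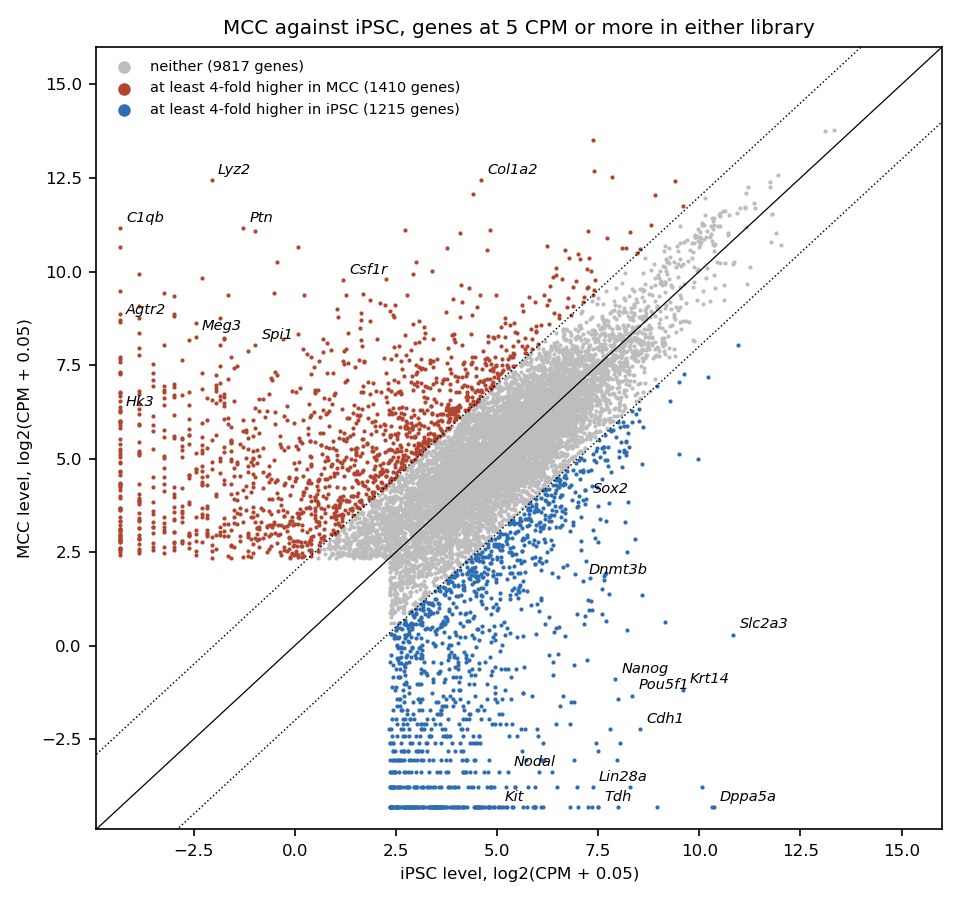
Level of each of the 12442 genes in iPSC (horizontal axis) and MCC (vertical axis), both as log2 of CPM plus 0.05; each point is 1 gene in 1 library each, the solid line marks equal levels and the dotted lines 4-fold. The 1410 red genes lie above the upper dotted line and the 1215 blue genes below the lower one, and the 9817 grey genes lie between them; genes with 0 reads line the left and lower edges.

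The marker genes set both libraries apart. Of 8 macrophage markers, 8 reached 5 CPM in MCC and 1 in iPSC, the lysosomal glycoprotein gene Cd68 at 17.4 CPM. Of 6 pluripotency markers, 6 reached it in iPSC and 1 in MCC, Sox2 at 15.1 CPM. Of 8 fibroblast markers, 8 reached it in MCC and 4 in iPSC, with a summed level of 29469 CPM in MCC, compared with 371 in iPSC and 21526 in MEF. The MCC library thus carried macrophage and fibroblast genes together. In a bulk library, fewer cells of a type and less RNA per cell cannot be told apart. How much fibroblast RNA took part in each difference below was not tested.

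The levels in the other 3 libraries differed between both sets. Of the 1410 genes higher in MCC, 820 (58.2%) reached 5 CPM in MEF, 852 (60.4%) in BM and 794 (56.3%) in PB, and 185 (13.1%) reached it in none of them. Of the 1215 genes higher in iPSC, 433 (35.6%) reached it in MEF, 434 (35.7%) in BM and 347 (28.6%) in PB, and 596 (49.1%) in none. Among the genes within 4-fold, 93.6% reached it in MEF and 2.79% in none of the 3.

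Of 40 genes of the pluripotency network, 39 reached 5 CPM in either library. Of these 35 were higher in iPSC and 0 in MCC, with a median log2 ratio of -8.04. Pou5f1, which encodes OCT4, stood at 325 CPM in iPSC and 0.347 in MCC, and Nanog at 241 CPM in iPSC and 0.486 in MCC. Dppa5a, an RNA-binding protein gene of the early embryo (chr9:78367052-78368177, minus strand on mm10), stood at 1310.3 CPM in iPSC with 0 reads in MCC, at least 18872-fold higher. Tdgf1, which encodes the Nodal co-receptor Cripto, stood at 494 CPM in iPSC with 0 reads in MCC, and so did the nuclear receptor gene Esrrb at 179.9 CPM, Utf1 at 129 and the zinc finger gene Sall4 at 111. Lin28a, which encodes an inhibitor of let-7 maturation, gave 1 read in MCC and 165 CPM in iPSC. Of the network genes measured, 8 reached 5 CPM in MCC. Of these, 4 were higher in iPSC: Jarid2 stood at 177 CPM in iPSC and 18.7 in MCC, Phc1 at 193 CPM in iPSC and 21.8 in MCC and Rif1 at 102 CPM in iPSC and 10.2 in MCC. Sox2 stood at 148 CPM in iPSC and 15.1 in MCC, 9.79-fold (9.04 to 10.6) higher in iPSC, with 0.439 in MEF, 0 in BM and 0 in PB. The other 4 were within 4-fold, the transcription factor genes Klf4, at 125 CPM in MCC and 183 in iPSC, Klf2, at 51.8 and 57.6 CPM, Nacc1, at 89.8 and 141 CPM, and Tbx3, at 14.2 and 52.7 CPM. Klf4 and Klf2 are also read in many differentiated cells.

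Genes of several neighbouring embryonic states were also high in iPSC. Of 15 measured genes of the formative and primed states, 12 were higher in iPSC and 0 in MCC. They included the claudin gene Cldn6 at 151 CPM, T, which encodes Brachyury, at 24.9 CPM, and Grhl2, an epithelial transcription factor gene, at 21.6 CPM, each with 0 reads in MCC. Of 26 measured germline genes, 23 were higher in iPSC and 0 in MCC. Since 25 of them reached 5 CPM in iPSC and 3 in MCC, this count gives no test of direction. Tfap2c, a germ line and trophoblast transcription factor gene, stood at 53.3 CPM and Dppa3, which encodes the maternal factor Stella, at 30.4 CPM, both with 0 reads in MCC. Of 16 genes of the two-cell-like state in the table, 1 was measured, Zfp42 (REX1) at 34.1 CPM in iPSC and 0 reads in MCC, and Zscan4d stood at 0.268 CPM in iPSC. Of 11 measured trophoblast genes, 8 were higher in iPSC, among them Cdx2 at 35.2 CPM with 0 reads in MCC, the homeobox gene Esx1 at 28.9 CPM and Krt7 at 111 CPM in iPSC and 0.185 in MCC. Of 8 measured neural genes 6 were higher in iPSC, with the intermediate filament gene Nes at 65.9 CPM in iPSC and 1.85 in MCC and the oligodendrocyte factor gene Olig2 at 11 CPM against 0 reads. The lists of 2 other lineages were not one-sided. Of 6 measured endoderm genes 2 were higher in iPSC, Lama1 and Gata4, and 2 in MCC, Pdgfra and Dab2. The summed level over the whole list was 626 CPM in iPSC and 1970.1 in MCC. Pdgfra is also a receptor gene of mesenchyme, so this sum is no measure of endoderm. Of 5 early mesoderm genes 3 were higher in iPSC and 1 in MCC, Osr1, which is also on the list of mesenchymal factors. Whether the transcripts higher in iPSC came from other cells in the culture was not tested.

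Among adhesion genes, those of epithelial junctions differed widely. Of 39 measured epithelial junction genes, 36 were higher in iPSC and 0 in MCC, with a median log2 ratio of -6.80. Cdh1, which encodes E-cadherin, stood at 372 CPM in iPSC and 0.162 in MCC, 2294-fold (1113 to 5706) higher. Epcam, an epithelial adhesion molecule gene, stood at 179.6 CPM in iPSC and 0.0926 in MCC, and Dsp, which encodes desmoplakin of the desmosome, at 261 CPM in iPSC and 0.116 in MCC. Krt8 stood at 1266 CPM with 0 reads in MCC, and its keratin partner Krt18 at 1065 CPM with 1 read in MCC. The tight junction gene Cldn4 stood at 315 CPM in iPSC and 0.0231 in MCC. The 3 members within 4-fold were the connexin gene Gja1 at 104 CPM in MCC and 159 in iPSC, the catenin gene Ctnnd1 at 37.1 and 44.6 CPM and the P-cadherin gene Cdh3 at 12.8 and 20 CPM.

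Keratins of stratified epithelium were also present in iPSC. These 23 genes of basal epithelium were chosen after their values were seen, so their count describes the library and supports nothing. Of the 16 that were measured, 16 were higher in iPSC, and the summed level of the 23 was 3023 CPM in iPSC, compared with 105 in MCC and 100.4 in MEF. Krt14, a keratin of basal epidermal cells, stood at 773 CPM in iPSC and 0.393 in MCC, 1965-fold (1227 to 3374) higher. Krt6a stood at 253 CPM with 0 reads in MCC, and a gene on the other strand covers 24.8% of its exon bases. Sfn, which encodes 14-3-3 sigma, stood at 383 CPM in iPSC and 2.52 in MCC and the hemidesmosome gene Itgb4 at 218 CPM in iPSC and 2.55 in MCC. Other defining genes of that cell type were near 0: Krt5, the usual partner of Krt14, at 0.153 CPM in iPSC, the transcription factor gene Trp63 at 0.363, and the desmoglein gene Dsg3 at 0.497. The table lists 48 keratin genes, and 11 of the 12 measured were higher in iPSC.

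Macrophage genes were the other pole. Of 48 macrophage and monocyte genes in the table, 40 were measured, 39 were higher in MCC and 0 in iPSC, with a median log2 ratio of 9.03. Since 40 reached 5 CPM in MCC and 4 in iPSC, this count gives no test of direction. The complement chain gene C1qb (chr4:136880129-136886187, minus strand) stood at 2288 CPM in MCC with 0 reads in iPSC, at least 39867-fold higher. Its partners C1qc, with 0 reads, and C1qa, with 1 read in iPSC, stood at 1615 and 972 CPM in MCC. Lyz2, which encodes lysozyme, stood at 5597 CPM in MCC and 0.191 in iPSC, 29256-fold (15908 to 61010.2) higher. Tyrobp, the adaptor DAP12, stood at 713 CPM and Adgre1, the F4/80 antigen, at 400.1 CPM, both with 0 reads in iPSC. Of 27 measured pan-leukocyte genes, 27 were higher in MCC, with Ptprc, which encodes CD45, at 64.3 CPM against 0 reads. Of these genes 6 reached 5 CPM in iPSC, so the same limit holds. Genes of other blood cells were few. Of 20 neutrophil granule genes 3 were measured, with a summed level of 43.7 CPM in MCC and 49.8 in iPSC against 78064 in BM. Of 29 lymphocyte genes 4 were measured, among them Cd28, a costimulatory receptor gene, at 24.3 CPM in MCC and 0.23 in iPSC.

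Receptors and regulators of phagocytes followed the same side. Of 33 measured phagocytic and Fc receptor genes 21 were higher in MCC and 0 in iPSC. Fcgr1, the high-affinity receptor for IgG, stood at 203 CPM in MCC with 0 reads in iPSC, and Mrc1, the mannose receptor, at 689.9 CPM in MCC and 0.65 in iPSC. The engulfment receptor gene Axl, which fibroblasts also express, stood at 292 and 257 CPM and did not pass the rule. Of 34 measured myeloid transcription factor genes, 22 were higher in MCC and 1 in iPSC. Spi1, which encodes PU.1, stood at 261 CPM in MCC and 0.459 in iPSC, 569-fold (382 to 889) higher. Maf stood at 232 CPM in MCC and 1.57 in iPSC and Irf8 at 69.7 CPM in MCC and 1.49 in iPSC. The stress-responsive repressor gene Bhlhe40 was the exception at 17.2 and 121 CPM. Of 22 measured antigen presentation genes 11 were higher in MCC and 0 in iPSC. The class I heavy chain gene H2-D1 stood at 1087 CPM in MCC and 88.4 in iPSC, 12.3-fold (11.9 to 12.7) higher.

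Connective tissue genes stood beside them. Of 49 measured fibroblast and matrix genes 38 were higher in MCC and 0 in iPSC, with a median log2 ratio of 4.81. The proteoglycan gene Dcn stood at 2152 CPM in MCC and 0.459 in iPSC, 4687-fold (3149.8 to 7315) higher, with 141 in MEF. Lum, another small proteoglycan, stood at 543 CPM against 1 read in iPSC, and Postn, which encodes periostin, at 1599 CPM in MCC and 1.01 in iPSC. Several matrix genes were abundant in both libraries and did not pass: Fn1, which encodes fibronectin, at 1704 CPM in MCC and 1345 in iPSC, Sparc at 3986 and 1127 CPM and the matricellular gene Thbs1 at 2078 and 3819.6 CPM. The matrix list thus split into genes near 0 in iPSC and genes read in both. Of 26 measured matrix protease and inhibitor genes 13 were higher in MCC, among them Adamts2, the procollagen peptidase, at 294 CPM in MCC and 0.765 in iPSC and the gelatinase gene Mmp2 at 442 and 17 CPM. Of 28 measured mesenchymal factor and cadherin genes 14 were higher in MCC, with Cdh11, a mesenchymal cadherin, at 325 CPM in MCC and 1.01 in iPSC and the homeobox gene Prrx1 at 189.7 and 2.45 CPM. The 3 higher in iPSC were Msx2, Cdh6 and Foxd1, which stood at 22.9, 14.4 and 5.7 CPM there. Contractile genes did not share this side: of 17 measured 1 was higher in MCC and 4 in iPSC, among them Tnnt2, a cardiac troponin gene, at 71 CPM in iPSC and 0.0694 in MCC.

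Integrins stood on both sides. Of 16 measured integrin genes 6 were higher in MCC and 4 in iPSC, and their median of 0.06 turned to -0.33 under total counts. Itgb2 and Itgam, the chains of the leukocyte receptor CD11b/CD18, stood at 65.8 and 67 CPM in MCC and 0.44 and 0.249 in iPSC. Another gene on the same strand covers 68.7% of the exon bases of Itgam. The laminin-binding chains Itga3, at 207 CPM in iPSC and 1.53 in MCC, and Itga6, at 281 and 58.7, were higher in iPSC. Itgb1, the common beta chain, stood at 535 CPM in MCC and 691 in iPSC and did not pass. Per kilobase of exon, Itga6 made up 57.3% of the summed level of Itga6 and the fibronectin receptor chain Itga5 in iPSC and 27.7% in MCC.

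Of 505 measured signalling genes, on 17 pathway lists, 194 (38.4%) were higher in MCC and 67 (13.3%) in iPSC, beside 11.3% and 9.77% over all genes. The lists differed widely in how their members divided. Immune pathways lay on the side of MCC, and most developmental pathways held members on both sides. The Hippo list had members past the rule toward iPSC alone, and the retinoid list toward MCC alone.

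**Figure D2:**
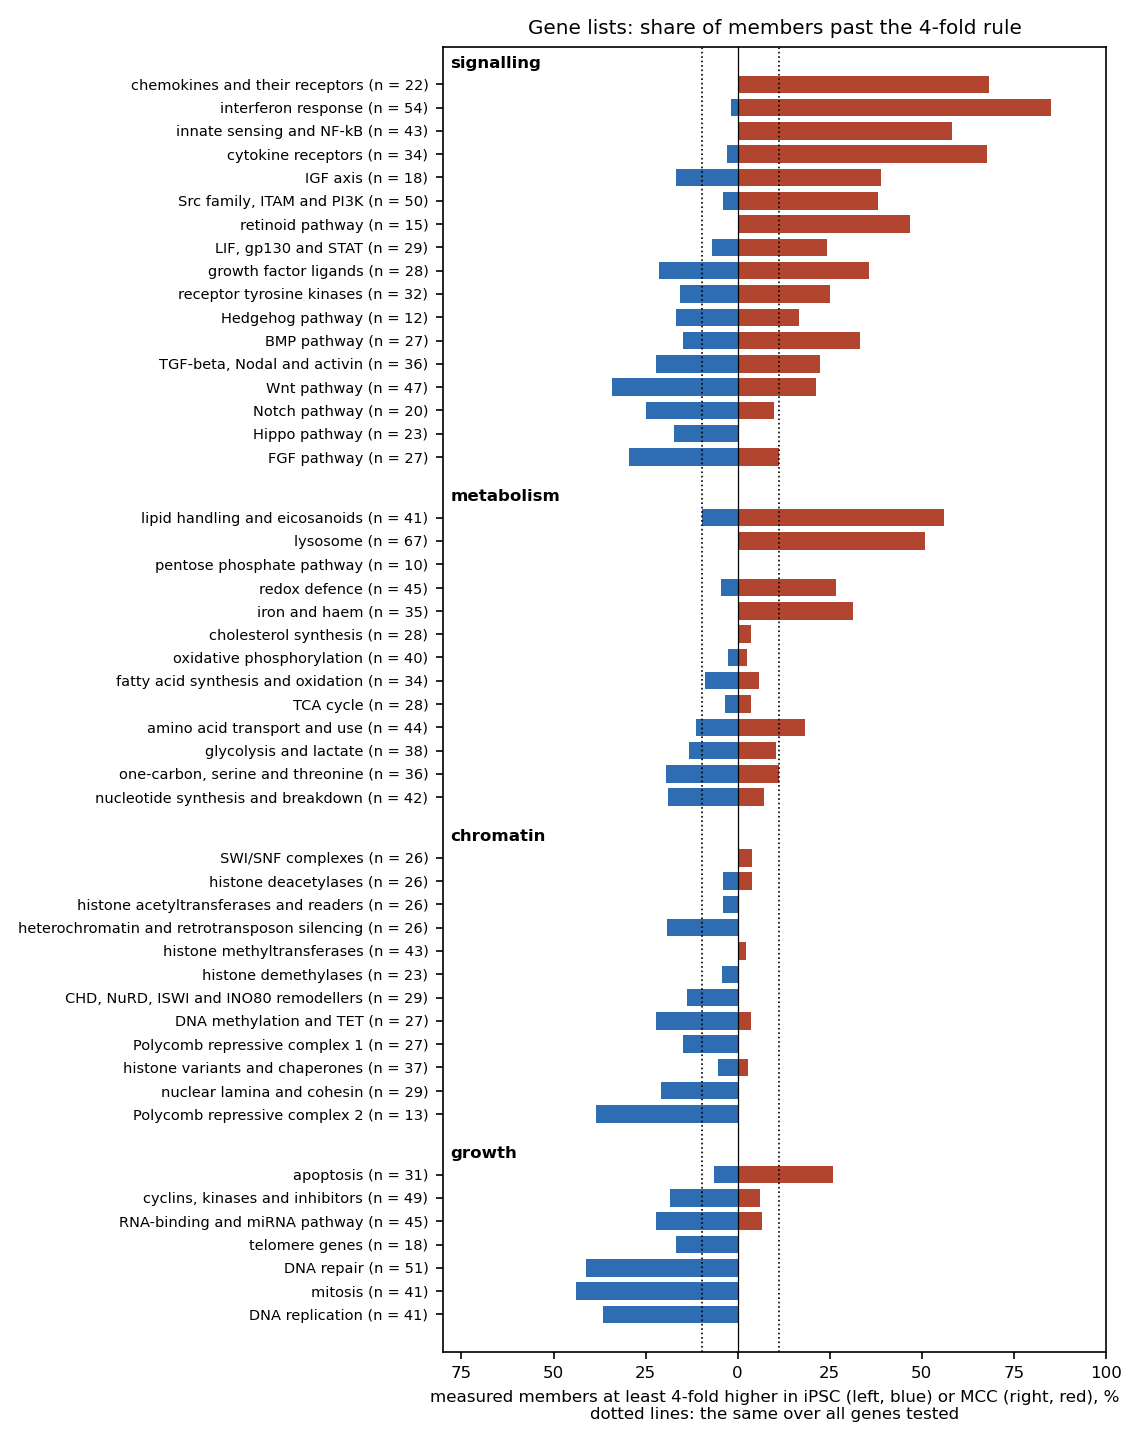
For each list of the signalling, metabolism, chromatin and growth families with at least 10 measured members (n in brackets) the share at least 4-fold higher in MCC (red, to the right) and in iPSC (blue, to the left), in percent, ordered within each family by the median log2 ratio; dotted lines mark the shares over all 12442 genes, 11.3% and 9.77%. Interferon response, chemokine and cytokine receptor lists reach farthest to the right among those drawn, and mitosis, DNA repair and Polycomb repressive complex 2 farthest to the left.

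LIF signals through the receptor chain LIFR and the shared chain gp130 to STAT3, and sustains mouse pluripotent cells in culture. Of 29 measured genes of this pathway 7 were higher in MCC and 2 in iPSC. Lif itself stood at 16.4 CPM in iPSC and 0.995 in MCC, 16.5-fold (12.1 to 23) higher in iPSC, with 15 in MEF, 0.393 in BM and 5.83 in PB. Cntfr, the receptor chain for ciliary neurotrophic factor, was the other, at 14 and 2.38. Other receptor chain genes were higher in MCC: Il6st, which encodes gp130, stood at 918 CPM in MCC and 83.5 in iPSC, 11-fold (10.6 to 11.3) higher in MCC, and Osmr, the oncostatin M receptor chain, at 112 CPM in MCC and 5.99 in iPSC. Stat3 stood at 276 and 111 CPM and its feedback inhibitor gene Socs3 at 228 and 100.5 CPM, neither past the rule.

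FGF4 drives differentiation of mouse pluripotent cells through ERK, and FGF7 and FGF10 are signals from mesenchyme to epithelium. Of 27 measured FGF pathway genes 3 were higher in MCC and 8 in iPSC. Fgf4 stood at 61.9 CPM in iPSC and Fgf8 at 5.84, both with 0 reads in MCC. Fgf7 stood at 98.2 CPM in MCC and 0.172 in iPSC, 570.3-fold (300.2 to 1248) higher in MCC, and Fgf10 at 39.4 and 0.842 CPM. The ligand genes named were thus different members of 1 family in each library. The receptor gene Fgfr1 stood at 228 and 112 CPM and did not pass. Some genes that FGF and ERK signals induce were higher in iPSC. The ETS factor gene Etv4 stood at 63.9 CPM in iPSC and 2.11 in MCC. The phosphatase gene Dusp4 stood at 23.6 CPM in iPSC and 1.06 in MCC. The feedback inhibitor gene Spry4 stood at 30.6 CPM in iPSC and 6.55 in MCC. Etv5 stood at 102 CPM in iPSC and 28.4 in MCC, 3.6-fold, short of the rule. Spry1, another Sprouty feedback inhibitor gene, leaned the other way at 23.2 CPM in MCC and 11.8 in iPSC, short of the rule. A gene on the other strand covers 24.4% of its exon bases. Within the Sprouty pair, Spry4 made up 61.4% of the level per kilobase of Spry4 and Spry1 in iPSC and 14.7% in MCC.

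In the Wnt pathway secreted ligands bind Frizzled receptors and stabilise beta-catenin, which acts with TCF and LEF factors. Of 47 measured Wnt genes 10 were higher in MCC and 16 in iPSC. Among ligands, Wnt3 stood at 23.4 CPM and Wnt7a at 9.6 in iPSC with 0 reads in MCC, and Wnt7b at 29 CPM in iPSC and 0.0231 in MCC. Among receptors, Fzd10 stood at 21.8 CPM in iPSC with 0 reads in MCC, and Fzd1 was higher in MCC at 155 CPM in MCC and 14.5 in iPSC. Several secreted antagonist genes were higher in MCC: Sfrp1 stood at 2217 CPM in MCC and 28.5 in iPSC, 77.8-fold (73.9 to 81.9) higher, Sfrp2 at 292 and 4.04 CPM, and Dkk2 at 8.84 and 0.478 CPM. Lgr5, the R-spondin receptor and itself a Wnt target, stood at 116 CPM in MCC and 0.153 in iPSC, 760.0-fold (385 to 1761) higher in MCC, with 16.9 in MEF. Lef1 and the Wnt target gene Sp5 stood at 10.7 and 10.8 CPM in iPSC with 0 reads in MCC. Ctnnb1, which encodes beta-catenin, stood at 503 and 709 CPM and did not pass. Neither role kept to 1 library: the ligand gene Wnt16 was higher in MCC, at 12.8 CPM in MCC and 0.153 in iPSC, and the secreted inhibitor genes Notum, at 19 CPM in iPSC and 0.162 in MCC, and Dkk1, at 5.51 CPM with 0 reads in MCC, were higher in iPSC.

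Nodal and activin act through SMAD2 and SMAD3 in pluripotent cells, with Cripto as co-receptor and Lefty as antagonist. Of 36 measured genes 8 were higher in MCC and 8 in iPSC, and the median of 0.01 turned negative under all 3 other scalings. Nodal stood at 38.3 CPM in iPSC and 0.0463 in MCC, its antagonist Lefty2 at 61.6 CPM with 0 reads in MCC, and Inhba, the activin A subunit, at 207 CPM in iPSC and 10.1 in MCC. Receptors of TGF-beta itself were higher in MCC: Tgfbr2 stood at 552 CPM in MCC and 49.3 in iPSC, 11.2-fold (10.8 to 11.7), and Tgfbr3, the co-receptor betaglycan, at 182 and 7.9 CPM. Ltbp2 and Ltbp3, of the family that holds latent TGF-beta in the matrix, stood at 88.6 and 129 CPM in MCC and 3.79 and 12.3 in iPSC. Activin genes stood on both sides, since Inhbb, the activin B subunit, was higher in MCC at 67.4 CPM in MCC and 6.2 in iPSC.

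The BMP, Notch and Hedgehog lists also held members on both sides. Of 27 measured BMP genes 9 were higher in MCC and 4 in iPSC, and the sign of the median, 0.16, turned under total counts. Bmp4 stood at 30.8 CPM in iPSC and 1.06 in MCC and its target gene Id1 at 153 CPM in iPSC and 25.6 in MCC. Of 20 measured Notch genes 2 were higher in MCC and 5 in iPSC. Notch3 stood at 96.6 CPM in iPSC and 10.8 in MCC and the ligand gene Jag2 at 35 CPM in iPSC and 0.972 in MCC, and Dlk1, a non-canonical ligand gene, at 1512 CPM in MCC and 27 in iPSC, 56-fold (53.1 to 59.1) higher in MCC. Of 12 measured Hedgehog genes 2 were higher in MCC, the co-receptor genes Gas1 at 415 CPM in MCC and 3.04 in iPSC and Boc at 57.7 and 6.01 CPM, and 2 in iPSC, the target genes Gli1 at 7.17 CPM in iPSC and 0.116 in MCC and Ptch1 at 34.8 CPM in iPSC and 6.41 in MCC. In the Hippo list 4 of 23 were higher in iPSC and 0 in MCC. These were Tead4, a TEAD factor gene of the trophoblast, at 27.1 CPM in iPSC and 0.44 in MCC, Wwc1, Ajuba and Ccn2, a YAP target gene, at 99 CPM in iPSC and 4.26 in MCC. Of the exon bases of Ccn2 23.2% overlap a gene on the other strand.

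Receptor tyrosine kinase genes stood on both sides. Of 32 measured receptors 8 were higher in MCC and 5 in iPSC. Csf1r, the receptor of CSF1 on macrophages, stood at 869 CPM in MCC and 2.26 in iPSC, 385-fold (321 to 465) higher, with 1.57 in MEF, 246 in BM and 550.5 in PB. Kit, its relative and the receptor of stem cell factor, stood at 32.5 CPM in iPSC with 0 reads in MCC, at least 468-fold higher. Kitl, the ligand of Kit, was higher in MCC at 110.2 CPM in MCC and 5.82 in iPSC. Pdgfra and Pdgfrb, receptors of platelet-derived growth factor on mesenchyme, stood at 665 and 99.8 CPM in MCC and 2.37 and 9.11 in iPSC. The ligand gene Pdgfa was higher in iPSC at 62.6 CPM in iPSC and 9.33 in MCC. Erbb3, a receptor of neuregulins, stood at 33.5 CPM in iPSC and 0.185 in MCC and the ephrin receptor gene Epha2 at 204 CPM in iPSC and 3.75 in MCC. The EGF family ligand genes Areg, at 23.5 CPM in iPSC and 0.139 in MCC, Hbegf, at 40.2 CPM in iPSC and 1.23 in MCC, and Tgfa, at 11.4 CPM in iPSC and 1.32 in MCC, were also higher in iPSC.

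**Figure D3:**
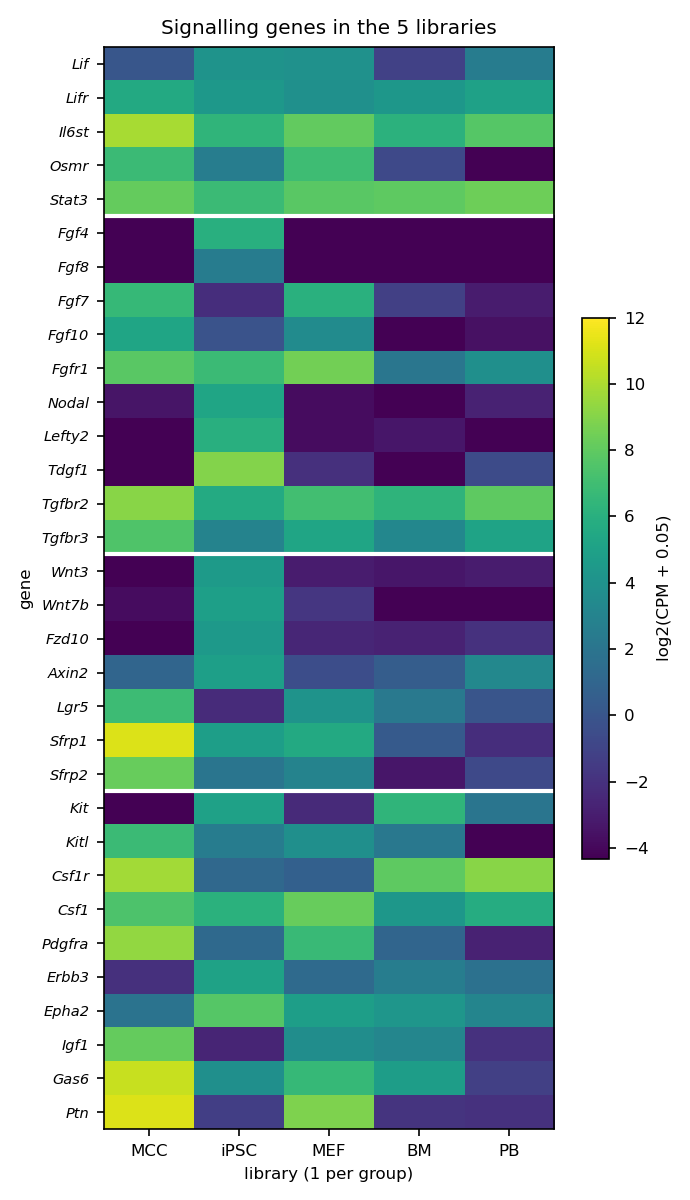
Level of 32 signalling genes (rows) in each of the 5 libraries (columns, 1 library each), as log2 of CPM plus 0.05 from dark (0 reads) to yellow; white lines part LIF and STAT genes, FGF and Nodal genes, Wnt genes, and receptor kinases with ligands. Fgf4, Nodal, Lefty2, Wnt3 and Fzd10 are bright in iPSC alone among the 5, and Sfrp1, Lgr5, Igf1 and Gas6 are brightest in MCC.

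Growth factor ligand genes also stood on both sides. Which cells of MCC gave the ligand transcripts was not tested. Of 28 measured ligand genes 10 were higher in MCC and 6 in iPSC. Ptn, which encodes the heparin-binding factor pleiotrophin, stood at 2290.3 CPM in MCC and 0.363 in iPSC, 6301-fold (4034 to 10465) higher, while its relative Mdk, midkine, stood on the other side at 117 CPM in iPSC and 9.88 in MCC. Gas6, the bridging ligand of TAM receptors in the uptake of dying cells, stood at 1570.1 CPM in MCC and 13.7 in iPSC. Igf1 stood at 285 CPM in MCC and 0.115 in iPSC, 2486-fold (1142 to 6777) higher, with 12.5 in MEF, 9.13 in BM and 0.201 in PB. Of 18 measured genes of the IGF axis 7 were higher in MCC and 3 in iPSC. The IGF binding protein genes Igfbp4, at 2179 CPM in MCC and 151 in iPSC, Igfbp5, at 256 and 5.93 CPM, and Igfbp7, at 160.0 and 8.07 CPM, were higher in MCC, whereas Igfbp2 was higher in iPSC at 727 CPM in iPSC and 132 in MCC. Igf2bp1, which encodes an mRNA-binding protein of fetal tissue, stood at 286 CPM in iPSC and 9.79 in MCC. The receptor gene Igf1r stood at 76.7 and 49.7 CPM and did not pass.

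Receptor and sensor genes of immunity were more often higher in MCC than in iPSC. Of 34 measured cytokine receptor genes 23 were higher in MCC and 1 in iPSC, the death receptor gene Tnfrsf21. Csf2rb, the shared chain of the GM-CSF, IL-3 and IL-5 receptors, stood at 82.7 CPM with 0 reads in iPSC, though its close copy Csf2rb2 can share its reads. Il1r1 stood at 174 CPM in MCC and 2.77 in iPSC and Il10ra at 46.8 CPM in MCC and 0.0957 in iPSC. Of 22 measured chemokine and receptor genes 15 were higher in MCC and 0 in iPSC, with Ccl8 at 467 CPM in MCC and 0.0765 in iPSC and Pf4 at 248 CPM against 1 read. Ccl2, the monocyte attractant, was read in both libraries at 67.9 and 32.8 CPM. Of 43 measured sensor and NF-kB genes 25 were higher in MCC. The endosomal receptor genes Tlr7, at 40.1 CPM in MCC and 0.0957 in iPSC, and Tlr8 and Tlr13, at 12.8 and 29.2 CPM with 0 reads in iPSC, were among them, and so was the inflammasome protease gene Casp1, at 93.4 CPM with 0 reads. The NF-kB subunit gene Rela stood at 98.2 and 42.9 CPM and the adaptor kinase gene Irak1 at 111 and 51.5 CPM, within 4-fold.

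Inside the cell, 19 of 50 measured genes of Src, ITAM and PI3K signalling were higher in MCC and 2 in iPSC. Btk, a kinase downstream of immune receptors, stood at 48 CPM in MCC and 0.0574 in iPSC, and the GTPase gene Rac2 of leukocytes at 141 CPM in MCC and 0.268 in iPSC. The transcripts of PI3K catalytic subunits differed between the libraries. Pik3cg, of leukocytes, stood at 37 CPM in MCC against 1 read in iPSC, and Pik3cb at 65.6 CPM in iPSC and 4.79 in MCC, 13.7-fold (11.9 to 15.8) higher in iPSC. Pik3cb made up 77.9% of the level per kilobase of Pik3cb and Pik3cd in iPSC and 4.76% in MCC. Akt1 stood at 433 and 193 CPM and did not pass. In the retinoid pathway 7 of 15 were higher in MCC and 0 in iPSC. The binding protein gene Crabp1 stood at 614 CPM in MCC and 15.1 in iPSC, 40.7-fold (37.9 to 43.8) higher, and the retinal dehydrogenase gene Aldh1a1 at 23.1 and 0.172 CPM.

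The interferon response was the signalling list with the most members on one side. Interferons act through STAT factors and IRF9, which bind the interferon-stimulated response element in promoters of antiviral genes. Of 54 measured members 46 (85.2%) were higher in MCC and 1 in iPSC, with a median log2 ratio of 3.16 beside 0.14 over all genes. Ifi27l2a stood at 1213 CPM in MCC and 0.689 in iPSC, 1761-fold (1272 to 2514) higher. Ifit3, which encodes an antiviral RNA-binding family member, stood at 105 CPM in MCC and 0.593 in iPSC, with 3.17 in MEF, 14.1 in BM and 45.4 in PB. Irf7, the factor that amplifies the response, stood at 114 CPM in MCC and 1.43 in iPSC and Isg15, a ubiquitin-like modifier, at 156 and 4.76 CPM. The antiviral gene Ifitm1 was the 1 member higher in iPSC, at 77.9 CPM in iPSC and 18.2 in MCC. Irf1 stood at 50.9 and 49.3 CPM. Of the measured members, 26 reached 5 CPM in iPSC and 54 in MCC.

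Promoter windows of 300 bases, from 250 before to 50 after the RefSeq start site, were found for 9473 of the 12442 genes. The element was searched on both strands as GAAA, then any 2 bases, then GAAA. It was present in 17 of the 31 interferon members higher in MCC that have a window (54.8%). Among all 41 interferon members with a window, past the rule or not, 21 held it (51.2%), a similar share. Over all tested genes with a window the share was 3.79%, and over all 27025 windows it was 3.99%. Among tested genes it was present in 9.59% of those higher in MCC and 2.48% of those higher in iPSC. The windows of Isg15 (chr4:156200769-156201068, minus strand, GRCm38.p6) and Ifit3 (chr19:34583279-34583578, plus strand) show the letters behind this count, read 5′ to 3′ along the gene with matches in capitals.
Isg15: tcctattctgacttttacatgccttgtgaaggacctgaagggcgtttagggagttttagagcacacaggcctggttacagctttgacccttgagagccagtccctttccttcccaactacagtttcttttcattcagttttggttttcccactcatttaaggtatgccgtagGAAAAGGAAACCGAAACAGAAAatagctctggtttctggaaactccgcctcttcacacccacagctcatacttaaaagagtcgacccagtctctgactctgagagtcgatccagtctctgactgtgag
Ifit3: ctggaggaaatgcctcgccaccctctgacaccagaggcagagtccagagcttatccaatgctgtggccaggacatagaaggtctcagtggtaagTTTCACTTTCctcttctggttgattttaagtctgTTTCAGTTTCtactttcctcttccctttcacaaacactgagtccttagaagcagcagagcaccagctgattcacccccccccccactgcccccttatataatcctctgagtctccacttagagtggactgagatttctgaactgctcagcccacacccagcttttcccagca
In Isg15 3 overlapping matches began at positions -78, -72 and -66 from the start site and made 1 run, and in Ifit3 there were 2 separate matches, on the other strand, at -156 and -122. A match is a run of letters and no measured binding.

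PU.1 binds purine-rich letters around GGAA. The search word GAGGAAGT, on either strand, was present in 4 of 27 macrophage and monocyte members higher in MCC (14.8%). Among all 34 members with a window, past the rule or not, 5 held it (14.7%), and among all tested genes with a window 3.60%. Among tested genes it was in 6.42% of those higher in MCC and 2.14% of those higher in iPSC. The 4 members higher in MCC with the word were Ctss, C1qc, Spp1 and Pld4. The window of Ctss (chr3:95526536-95526835, plus strand), which encodes cathepsin S and stood at 649.5 CPM in MCC and 0.0765 in iPSC, carried it on the other strand at position -2, and that of C1qc (chr4:136892865-136893164, minus strand) at -195, so these windows show the word near to and far from the start, in capitals.
Ctss: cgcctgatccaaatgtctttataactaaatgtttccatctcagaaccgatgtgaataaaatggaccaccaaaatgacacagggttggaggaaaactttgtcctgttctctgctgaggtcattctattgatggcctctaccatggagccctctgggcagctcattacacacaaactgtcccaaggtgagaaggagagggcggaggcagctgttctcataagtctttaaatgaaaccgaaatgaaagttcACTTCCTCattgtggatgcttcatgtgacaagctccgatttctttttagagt
C1qc: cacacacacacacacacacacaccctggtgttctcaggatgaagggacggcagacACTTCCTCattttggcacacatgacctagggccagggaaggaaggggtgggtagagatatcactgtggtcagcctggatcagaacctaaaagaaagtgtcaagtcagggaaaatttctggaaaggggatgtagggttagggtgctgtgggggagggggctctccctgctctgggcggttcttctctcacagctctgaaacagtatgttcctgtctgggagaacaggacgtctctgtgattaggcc
The octamer ATGCAAAT, the site of OCT4, was present in 2 of 24 pluripotency members higher in iPSC (8.33%), beside 1.66% of tested genes. Both sides had it equally often, at 3.07% of the genes higher in MCC and 3.04% of those higher in iPSC. Zfp42 (chr8:43306960-43307259, minus strand) was one of them, with the word in capitals at position -186 on the other strand.
Zfp42: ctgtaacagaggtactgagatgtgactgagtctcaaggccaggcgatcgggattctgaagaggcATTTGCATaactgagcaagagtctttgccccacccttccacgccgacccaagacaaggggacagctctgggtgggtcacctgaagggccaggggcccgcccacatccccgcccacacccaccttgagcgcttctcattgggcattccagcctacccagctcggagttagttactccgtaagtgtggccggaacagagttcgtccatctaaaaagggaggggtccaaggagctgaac

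Of 327 measured chromatin genes, 5 (1.53%) were higher in MCC and 34 (10.4%) in iPSC, with a median log2 ratio of -0.56. The second share is near the 9.77% over all genes, and the first is below 11.3%. Most chromatin genes were therefore read in both libraries within 4-fold, and those higher in iPSC included genes of DNA methylation, Polycomb, the nuclear lamina and retrotransposon silencing.

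DNMT3A and DNMT3B set new DNA methylation, DNMT1 with UHRF1 copies it at replication, and TET enzymes oxidise it. Of 27 measured genes of this list 1 was higher in MCC, the methyl-CpG-binding repressor gene Zbtb4 at 71.4 CPM in MCC and 13.6 in iPSC, a difference that fell short of 4-fold under total counts. Higher in iPSC were 6. Dnmt3l, the cofactor of de novo methylation in germ cells, stood at 206 CPM in iPSC and 3.77 in MCC, 54.7-fold (46.8 to 64.2) higher, with 3.68 in MEF, 1.69 in BM and 0.201 in PB. Dnmt3b stood at 139 CPM in iPSC and 3.29 in MCC, 42.3-fold (35.8 to 50.2) higher, and Tet1 at 82.7 CPM in iPSC and 3.77 in MCC, 21.9-fold (18.7 to 25.8) higher. Uhrf1 stood at 284 CPM in iPSC and 36.4 in MCC and the remodeller gene Hells at 118 CPM in iPSC and 9.37 in MCC. Their relatives did not pass: Dnmt3a stood at 78.9 CPM in iPSC and 48.5 in MCC, Dnmt1 at 249.9 CPM in iPSC and 98.5 in MCC, Tet2 at 35.6 CPM in iPSC and 16 in MCC and Tet3 at 29.9 CPM in iPSC and 39.6 in MCC. Per kilobase of exon, Dnmt3b made up 85.2% of the Dnmt3b and Dnmt3a level in iPSC and 18.1% in MCC. Tet1 made up 71.7% of Tet1 and Tet2 in iPSC and 20.5% in MCC. In both pairs the gene with the higher level per kilobase thus differed between the libraries.

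Polycomb repressive complex 2 methylates histone H3 at lysine 27 through EZH1 or EZH2. Of its 13 measured genes 5 (38.5%) were higher in iPSC and 0 in MCC. Epop, an accessory subunit of pluripotent cells, stood at 135 CPM in iPSC and 5.83 in MCC, 23.1-fold (20.4 to 26.3) higher, Jarid2 at 177 CPM in iPSC and 18.7 in MCC, Mtf2 at 94 CPM in iPSC and 13 in MCC, the core subunit gene Suz12 at 139.7 CPM in iPSC and 25 in MCC and Ezh2 at 94.4 CPM in iPSC and 21.4 in MCC, 4.41-fold (4.11 to 4.74). Ezh1 stood at 36.1 CPM in iPSC and 34.3 in MCC. Ezh2 made up 74.5% of the Ezh2 and Ezh1 level per kilobase in iPSC and 41% in MCC. Complex 1, which ubiquitinates histone H2A, had 4 of 27 genes higher in iPSC. Cbx7, its chromobox subunit in stem cells, stood at 135 CPM in iPSC and 6.92 in MCC, 19.6-fold (17.4 to 22) higher, and Phc1 at 193 CPM in iPSC and 21.8 in MCC. Cbx6 leaned to MCC at 191 CPM in MCC and 57.5 in iPSC, 3.33-fold, short of the rule.

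Remodelling complexes differed in single subunits. Of 26 measured SWI/SNF genes 1 was higher in MCC and 0 in iPSC, and their median of 0.20 turned to -0.20 under total counts. It was Smarca2, the ATPase BRM, at 120.4 CPM in MCC and 17.6 in iPSC, 6.84-fold (6.37 to 7.34) higher. The alternative ATPase BRG1, Smarca4, stood at 174 and 235 CPM. Smarcc1, a core subunit of the stem cell complex, made up 74.4% of the Smarcc1 and Smarcc2 level per kilobase in iPSC and 25.9% in MCC. In the CHD, NuRD, ISWI and INO80 list 4 of 29 were higher in iPSC. Cecr2 stood at 23.5 CPM with 0 reads in MCC, and Chd7 at 31.2 CPM in iPSC and 2.11 in MCC. Few histone modifying enzymes passed. Of 43 methyltransferase genes 1 was higher in MCC, Prdm16, and 0 in iPSC. The call for Prdm16 was lost under total counts. Of 23 demethylase genes 1 was higher in iPSC, Hr, at 45.9 CPM in iPSC and 2.38 in MCC, and of 26 acetyltransferase and reader genes 1, Hat1, which acetylates new histone H4, at 292 CPM in iPSC and 36.2 in MCC. Rcor2, a partner of the demethylase LSD1, stood at 87.9 CPM in iPSC and 8.91 in MCC.

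Of 26 measured genes of heterochromatin and retrotransposon silencing 5 were higher in iPSC and 0 in MCC. Zfp57, which keeps methylation at imprinted regions, stood at 171 CPM in iPSC and 7.34 in MCC, 23.4-fold (20.9 to 26.2) higher. Its corepressor Trim28 stood at 919 CPM in iPSC and 288 in MCC, 3.19-fold, and passed 4-fold only under total counts among the scalings. Of 29 lamina and cohesin genes 6 were higher in iPSC. Lmnb1, a B-type lamin, stood at 292 CPM in iPSC and 44.4 in MCC and Lbr, the lamin B receptor, at 145 CPM in iPSC and 17.9 in MCC, whereas Lmna stood at 647 CPM in iPSC and 763 in MCC. The histone chaperone gene Nasp stood at 325 CPM in iPSC and 63.4 in MCC and the architectural factor gene Hmga2 at 82 CPM in iPSC and 12.4 in MCC.

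**Figure D4:**
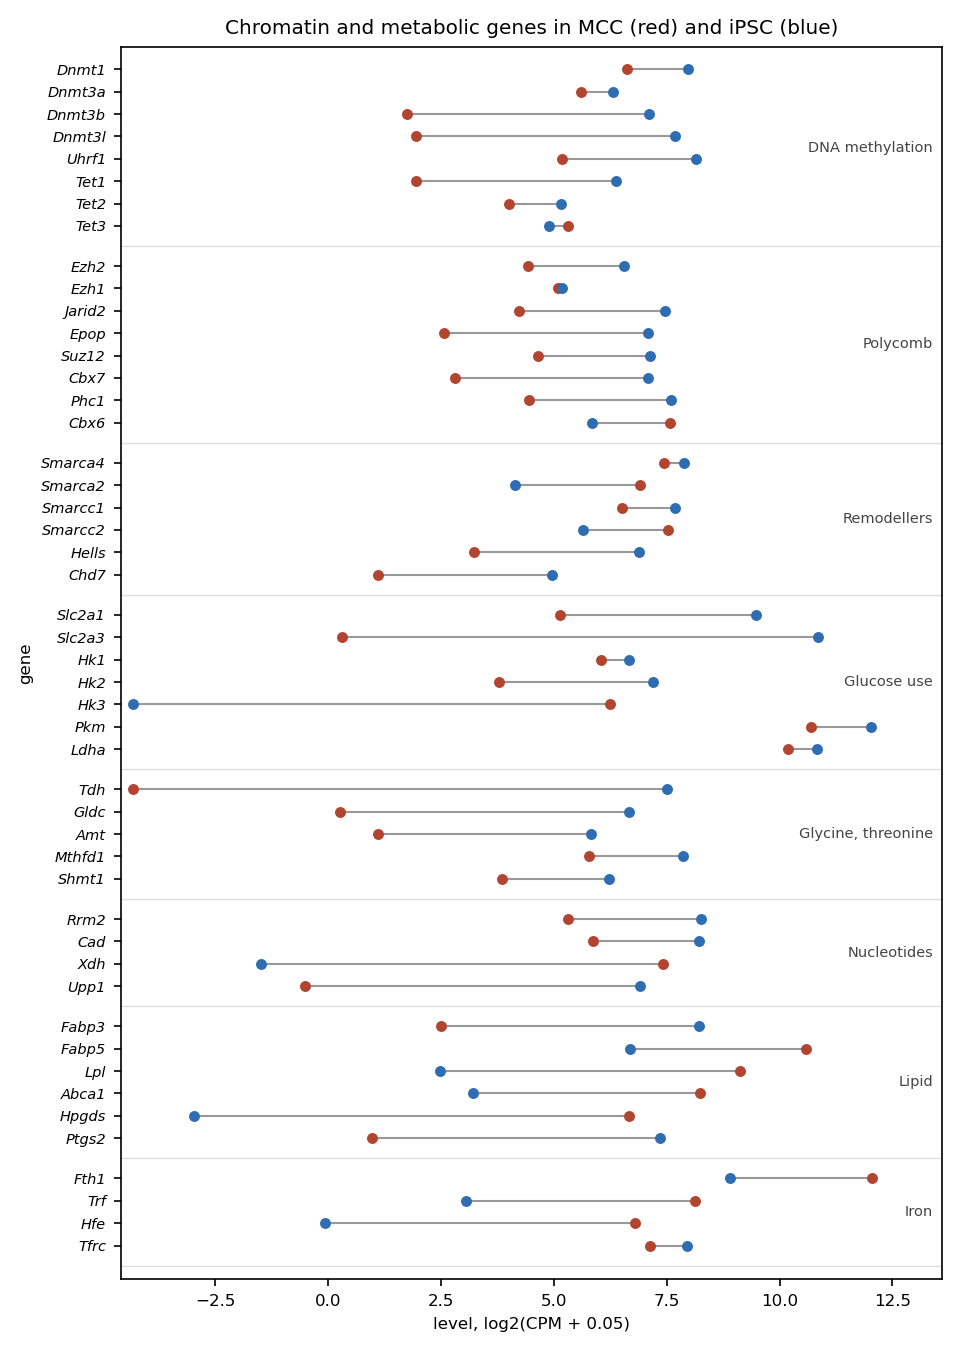
Levels of 48 chromatin and metabolic genes in MCC (red) and iPSC (blue), each point 1 library, as log2 of CPM plus 0.05; grey lines join both values of a gene. Dnmt3b, Dnmt3l, Tet1, Epop and Cbx7 lie far apart with iPSC to the right, while Dnmt3a, Tet2, Ezh1 and Smarca4 lie close together; Slc2a3 and Tdh are far higher in iPSC and Hk3, Xdh and Hpgds in MCC.

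The pairs of related genes described above belong to a set of 60. Shares per kilobase of exon rest on annotated exon lengths and not on the transcripts used. In 28 pairs the gene with the higher level per kilobase differed between MCC and iPSC, in 11 of 24 chromatin pairs, 6 of 11 signalling pairs, 5 of 16 metabolic pairs, 3 of 5 growth pairs and 3 of 4 identity pairs. In 7 pairs both members passed the rule in opposite directions: Kit and Csf1r, Fzd5 and Fzd1, Pik3cb and Pik3cd, Hk2 and Hk3, Fabp3 and Fabp5, Ccne1 and Ccnd2, and Cdh1 and Cdh11. None of the 7 was a chromatin pair. The Pik3cd call was lost under total counts.

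**Figure D5:**
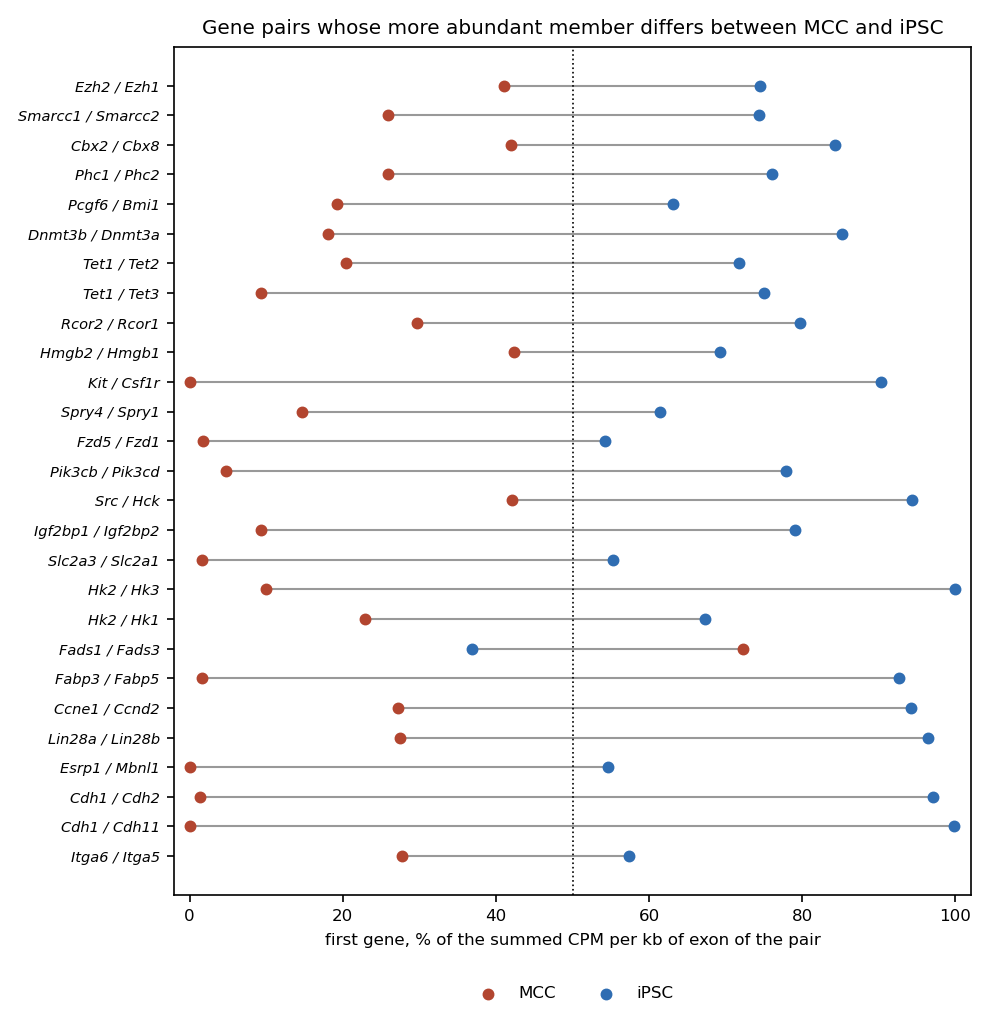
For 27 of the 28 gene pairs whose more abundant member differs, the share of the first gene in the summed CPM per kilobase of exon of both, in percent, in MCC (red) and iPSC (blue), 1 library each; the dotted line marks equal levels. In 26 of them the first gene holds the larger share in iPSC, by the order in which the pairs are written, and in Fads1 and Fads3 in MCC.

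Of 484 measured metabolic genes, 102 (21.1%) were higher in MCC and 36 (7.44%) in iPSC. Few genes of the TCA cycle, the pentose phosphate pathway and respiration passed the rule. In glycolysis the genes past the rule included carriers and single isoenzymes, and the summed level was 18622 CPM in iPSC and 10450 in MCC. Lysosomal, lipid handling and iron genes were higher in MCC more often than over all genes.

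Of 38 measured genes of glycolysis and lactate 4 were higher in MCC and 5 in iPSC. The glucose carrier gene Slc2a3 (chr6:122727809-122801640, minus strand), GLUT3, stood at 1837 CPM in iPSC and 1.18 in MCC, 1556-fold (1184 to 2091) higher, with 7.89 in MEF, 383 in BM and 219 in PB. Slc2a1, GLUT1, stood at 718 CPM in iPSC and 35 in MCC, 20.5-fold (19.5 to 21.6) higher. A further carrier gene of the family, Slc2a6, was higher in MCC at 24.6 CPM in MCC and 2.03 in iPSC. Hk2, the hexokinase bound to mitochondria in growing cells, stood at 146 CPM in iPSC and 13.7 in MCC, 10.7-fold (9.8 to 11.6) higher, and Hk3, the hexokinase of leukocytes, at 75.7 CPM in MCC with 0 reads in iPSC. Hk1 stood at 101 CPM in iPSC and 65.6 in MCC. The monocarboxylate carrier gene Slc16a3, which exports lactate, stood at 175 CPM in iPSC and 36.7 in MCC. The phosphofructokinase gene Pfkp was also higher in iPSC, at 169 CPM in iPSC and 31.4 in MCC. Later steps did not pass in these cases: Gapdh stood at 3548 CPM in iPSC and 2971 in MCC, Pkm at 4188 CPM in iPSC and 1669 in MCC and Eno1 at 2426 CPM in iPSC and 1108 in MCC. Of 10 genes of the pentose phosphate pathway 0 passed in either direction.

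In mitochondria, 1 of 28 TCA cycle genes was higher in MCC, Pck2, at 209.9 CPM in MCC and 42.2 in iPSC, and 1 in iPSC, Ogdhl, at 89 CPM in iPSC and 22.2 in MCC, close to the threshold. The median of 0.13 changed sign under total counts, and the Pck2 call was lost there. Of 40 respiratory and related genes 1 was higher in MCC, the uncoupling protein gene Ucp2 at 491 CPM in MCC and 50 in iPSC, 9.83-fold (9.44 to 10.2), and 1 in iPSC, the testis cytochrome c gene Cyct at 24.2 CPM against 0 reads. Subunits of ATP synthase stayed within 4-fold, with Atp5b at 1204 and 1595 CPM.

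Mouse pluripotent cells are known to break down threonine to glycine and one-carbon units. Tdh, the threonine dehydrogenase gene, stood at 181 CPM in iPSC with 0 reads in MCC, at least 2609.6-fold higher, with 0.0925 in MEF, 0 in BM and 0 in PB. Gldc and Amt, parts of the glycine cleavage system, stood at 102 and 56.9 CPM in iPSC and 1.16 and 2.08 in MCC. Cytosolic Shmt1 and Mthfd1 were higher in iPSC at 5.13-fold and 4.26-fold. The serine synthesis genes Phgdh, at 284 CPM in iPSC and 165 in MCC, and Psat1, at 208 CPM in iPSC and 204 in MCC, did not pass. In all, 7 of 36 measured genes of this list were higher in iPSC and 4 in MCC. Those in MCC were Nnmt, which methylates nicotinamide, at 79.2 CPM in MCC and 1.59 in iPSC, Aldh1l1, Aldh1l2, and the folate receptor gene Folr2 of macrophages, at 35.2 CPM in MCC and 0.134 in iPSC, 63.1% of whose exon bases overlap a gene on the other strand. Folr1 took the other side at 34.2 CPM in iPSC and 0.602 in MCC.

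Of 42 nucleotide genes 8 were higher in iPSC and 3 in MCC. Synthesis genes were among the former, with Rrm2, the subunit of ribonucleotide reductase made in S phase, at 307 CPM in iPSC and 39.7 in MCC, Cad, which starts pyrimidine synthesis, at 298 CPM in iPSC and 58.7 in MCC and Ppat, which starts purine synthesis, at 84 CPM in iPSC and 14.6 in MCC. Breakdown genes stood on both sides. Xdh, xanthine dehydrogenase, stood at 172 CPM in MCC and 0.306 in iPSC, 563-fold (346 to 985) higher in MCC, and Upp1, uridine phosphorylase, at 119.8 CPM in iPSC and 0.648 in MCC, 185-fold (128 to 278) higher in iPSC. Among 44 amino acid genes 8 were higher in MCC and 5 in iPSC. Kmo and Kynu, of tryptophan breakdown in macrophages, stood at 19.9 and 7.82 CPM in MCC and 0.0574 and 0.134 in iPSC. The carrier gene Slc38a4 stood at 166 CPM in iPSC and 8.52 in MCC, the arginine carrier gene Slc7a3 at 27.8 CPM in iPSC and 1.3 in MCC, and Odc1, which starts polyamine synthesis, at 788 CPM in iPSC and 152 in MCC.

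Genes of lipid handling were higher in MCC more often than over all genes. Of 41 measured genes of lipid handling and eicosanoids 23 (56.1%) were higher in MCC and 4 in iPSC. Apod, an apolipoprotein gene, stood at 437 CPM in MCC and 2.05 in iPSC, 214-fold (177 to 261) higher, and the scavenger receptor gene Msr1 at 35 CPM with 0 reads in iPSC. Prostaglandin genes split: Hpgds, prostaglandin D synthase of immune cells, stood at 101 CPM in MCC and 0.0765 in iPSC, 1317-fold (514 to 4835) higher, whereas Ptgs2, cyclooxygenase 2, stood at 163 CPM in iPSC and 1.9 in MCC, 85.6-fold (68.9 to 108) higher in iPSC. Leukotriene genes split too, with Alox5ap at 96.3 CPM in MCC and 0.497 in iPSC and Alox5 at 7.88 CPM in iPSC and 0.0463 in MCC. Among fatty acid binding proteins, Fabp5 stood at 1535 CPM in MCC and 103 in iPSC and Fabp3 at 296 CPM in iPSC and 5.62 in MCC. Synthesis differed little. Of 28 cholesterol genes 1 was higher in MCC and 0 in iPSC, and Fasn, fatty acid synthase, stood at 261 and 380.0 CPM. Of 34 measured genes of fatty acid synthesis and oxidation 2 (5.88%) were higher in MCC and 3 (8.82%) in iPSC, beside 11.3% and 9.77% over all genes. Those in iPSC were Elovl4, Elovl7 and Acsl3. Those in MCC were Pparg, the nuclear receptor of fat cells and macrophages, at 22.3 CPM in MCC and 0.976 in iPSC, and Fads1, a desaturase gene, at 200.2 and 27.8 CPM.

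Lysosomal, redox and iron genes leaned to MCC. Of 67 measured lysosomal genes 34 (50.7%) were higher in MCC and 0 in iPSC, with a median log2 ratio of 2.0. Ctsb, a cathepsin, stood at 5942 CPM in MCC and 229 in iPSC, 26-fold (25.5 to 26.5) higher, and Gpnmb, a glycoprotein gene of loaded macrophages, at 567 CPM in MCC and 4.29 in iPSC. The membrane protein gene Lamp1 stood at 992 and 389 CPM, 2.55-fold, short of the rule. Of 45 redox genes 12 were higher in MCC and 2 in iPSC. Those in MCC held subunits of the phagocyte oxidase, Cybb at 70.9 CPM in MCC and 0.0383 in iPSC, Ncf1 at 152 and 0.21 CPM and Ncf4 at 62.6 CPM with 0 reads in iPSC. The peroxidase genes Prdx1, at 1035 and 988 CPM, and Gpx4, at 474 and 456 CPM, were level. Of 35 iron and haem genes 11 were higher in MCC and 0 in iPSC. Fth1, the ferritin heavy chain, stood at 4245 CPM in MCC and 477 in iPSC, 8.9-fold (8.78 to 9.02) higher, and Hfe, which regulates iron uptake, at 111 CPM in MCC and 0.899 in iPSC. Tfrc, the transferrin receptor, stood at 140.2 and 247 CPM.

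Genes of growth and division lay toward iPSC. Of 275 measured, 78 (28.4%) were higher in iPSC and 14 (5.09%) in MCC, with a median log2 ratio of -1.27. Of 41 replication genes 15 were higher in iPSC and 0 in MCC. Orc1, of the origin recognition complex, stood at 39.7 CPM in iPSC and 2.5 in MCC, 15.9-fold (13.1 to 19.4) higher, and Mcm3, of the replicative helicase, at 393 CPM in iPSC and 57.1 in MCC, 6.89-fold (6.6 to 7.18) higher. Of 41 mitotic genes 18 were higher in iPSC and 0 in MCC, with Top2a at 619 CPM in iPSC and 93.8 in MCC. The proliferation marker gene Mki67 stood at 186 CPM in iPSC and 71.2 in MCC, 2.61-fold, short of the rule. Transcripts of dividing cells were thus read in both libraries. G1 cyclins differed in kind. Ccne1, cyclin E1, was higher in iPSC at 125 CPM in iPSC and 29.3 in MCC, and Ccnd2, cyclin D2, in MCC at 277 CPM in MCC and 27.2 in iPSC. Mycn stood at 50.1 CPM in iPSC and 0.37 in MCC, 135-fold (83.1 to 237) higher.

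The E2F word TTTCCCGC was present in 3 of 14 replication members higher in iPSC that have a window (21.4%). Among all 32 replication members with a window, past the rule or not, 6 held it (18.8%). The share was 2.47% of tested genes, 0.671% of those higher in MCC and 3.04% of those higher in iPSC. The window of Mcm3 (chr1:20820263-20820562, minus strand) shows it in capitals at position 20, on the other strand. The CLEAR core TCACGTGA, a word of lysosomal promoters, was present in 2 of 30 lysosomal members higher in MCC that have a window (6.67%), beside 6 of all 55 members with a window (10.9%), 2.21% of tested genes, 1.25% of those higher in MCC and 1.01% of those higher in iPSC.
Mcm3: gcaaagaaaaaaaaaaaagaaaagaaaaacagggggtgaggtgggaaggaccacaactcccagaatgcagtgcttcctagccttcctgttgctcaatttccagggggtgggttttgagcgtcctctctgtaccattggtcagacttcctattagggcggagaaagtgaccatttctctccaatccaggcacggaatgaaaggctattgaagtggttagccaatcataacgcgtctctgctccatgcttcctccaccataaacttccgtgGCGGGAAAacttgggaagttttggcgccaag

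DNA repair genes lay on the same side. Of 51 measured repair genes 21 (41.2%) were higher in iPSC and 0 in MCC. Ung, which removes uracil from DNA, stood at 69.3 CPM in iPSC and 4.61 in MCC, 15-fold (13 to 17.4) higher, Msh6, a mismatch repair subunit, at 290.3 CPM in iPSC and 34.1 in MCC, and Bard1, of homologous recombination, at 42.8 CPM in iPSC and 2.85 in MCC. End joining was closer, with Xrcc6, which encodes Ku70, at 81.8 CPM in iPSC and 43.7 in MCC. Among 45 RNA-binding and miRNA genes 10 were higher in iPSC and 3 in MCC. Trim71, a let-7 target gene of stem cells, stood at 152 CPM in iPSC and 2.29 in MCC, and the epithelial splicing factor gene Esrp1 at 41.1 CPM with 0 reads in MCC. The splicing regulator gene Celf2 and the mRNA decay factor gene Zfp36, which limits inflammatory transcripts, were higher in MCC at 73.2 CPM in MCC and 6.47 in iPSC and 208 CPM in MCC and 31 in iPSC. Among apoptosis genes 8 of 31 were higher in MCC and 2 in iPSC. The BH3 genes stood apart: Bbc3 (PUMA) at 33.1 CPM in MCC and 1.68 in iPSC and Pmaip1 (NOXA) at 134 CPM in iPSC and 10.8 in MCC.

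Imprinted genes, read from 1 parental copy, stood on both sides. Of 29 measured 12 were higher in MCC and 5 in iPSC. At the Dlk1 and Meg3 locus of chromosome 12 each transcript named here was higher in MCC: Meg3 (chr12:109541001-109571726, plus strand) stood at 307 CPM in MCC and 0.134 in iPSC, 2293-fold (1113 to 5705) higher, Rian at 431 CPM in MCC and 0.23 in iPSC, Mirg and Rtl1 at 16 and 5.62 CPM with 0 reads in iPSC, and Dlk1 as given above. In MEF, Meg3 stood at 156 CPM and Rian at 426. H19 stood at 4317 CPM in MCC and 21.2 in iPSC, 203-fold (192 to 216) higher. Peg10, derived from a retrotransposon, stood on the other side at 1006 CPM in iPSC and 32 in MCC, 31.5-fold (29.8 to 33.2) higher, as did Phlda2, a growth-restraining placental gene, at 27.2 CPM in iPSC and 0.0463 in MCC. Peg3, at 93.4 and 109 CPM, and Mest, at 85.5 and 50.4 CPM, were within 4-fold. Of 16 measured Hox genes 5 were higher in iPSC and 1 in MCC. Those in iPSC included posterior members, with Hoxd13 at 12.2 CPM in iPSC and 0.0694 in MCC and Hoxb13 at 5.05 CPM with 0 reads. Under DESeq2 size factors Hoxb13 lay below the minimum of 5 CPM, so it was not called there, with a log2 ratio of -6.24 in place of -6.18.

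The sex-linked genes differed as well. The Y-linked genes Eif2s3y, at 35.6 CPM in MCC and 0.0191 in iPSC, Kdm5d, at 20 and 0.0191 CPM, Uty, at 14.7 and 0.0191 CPM, and Ddx3y, at 19 and 0.0765 CPM, were higher in MCC, and each was near 0 in iPSC. Xist, whose RNA coats the inactive X chromosome, stood at 99.8 CPM in MCC and 35.3 in iPSC. The sex of the source animals is not given in the labels, so sex and cell state cannot be told apart for these genes. Among the autosomes and X, the share higher in MCC ran from 7.95% of the genes of chromosome 17 to 16.2% on chromosome 19. The share higher in iPSC ran from 6.15% on chromosome 19 to 15.2% on chromosome X, with 67 of 440 X-linked genes.

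Gene families by name were also counted. Of 19 genes named Ms4a 7 were measured, and of 33 named Clec 13, both families of leukocyte surface proteins. Of the measured genes, 7 Ms4a and 12 Clec genes were higher in MCC, as were 17 of 25 collagen genes. Of 26 Rhox homeobox genes 4 were measured, and these 4 were higher in iPSC. Ms4a genes took 2.9e-04% of the iPSC counts and Clec genes 0.0021%, and Rhox genes took 1.3e-05% of the MCC counts. Ms4a, Clec and Rhox genes could thus reach 5 CPM almost only on 1 side, so their counts give no test of direction. Of 31 measured kinesin genes 12 were higher in iPSC and 2 in MCC. Of 271 zinc finger genes named Zfp, 26 (9.59%) were higher in iPSC and 7 (2.58%) in MCC, the first share near the 9.77% over all genes. Ribosomal protein genes took 12.4% of the counts in MCC and 9.20% in iPSC, and their median log2 ratio was 0.87.

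The threshold parted genes of nearly equal ratio. Just inside stood Zyx and Evl, 4.005- and 4.008-fold higher in MCC, and Rrp12 and Ogdhl, 4.004- and 4.015-fold higher in iPSC. Just outside stood Btg1 and Tap2, 3.998- and 3.993-fold, and Nbeal2 and Shroom4, both 3.985-fold. Between 3.8- and 4.2-fold lay 45 genes inside and 66 outside toward MCC, and 34 inside and 46 outside toward iPSC.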

How the data were processed

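PolyA RNA from Trizol extracts was sequenced in 5 mouse libraries, 1 per group. The authors deposited raw read counts per gene symbol, made with STAR and featureCounts on mm10 per the submitters' processing notes. The sources used here do not give versions, settings, strand or annotation. Each of the 5 columns matched a library by name and 0 were left unused. CPM values were computed from the counts with TMM scaling over the 5 libraries (edgeR 4.0.16, R 4.3.3; factors 0.909 for MCC and 1.19 for iPSC). Ratios, exact conditional binomial intervals (Clopper-Pearson), lists and motif searches were done in Python 3.11.15 with pandas 2.3.3, numpy 2.4.6 and scipy 1.17.1, and plots with matplotlib 3.10.9. Intervals at 95% and floors of 3 counts (0.0694 CPM in MCC, 0.0574 in iPSC) cover counting error only, since reads carry no stated molecular identifiers.

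The members and lists were chosen with earlier results of these data known. The 76 lists had 2617 entries from 2441 genes. The table held 2427 of these, and 1999 reached 5 CPM in either library; 165 of the listed genes stand on more than 1 list. A gene on a list counts as measured when it reached 5 CPM in either library, so a low gene had to be high on one side to be counted. Named genes were the 15 per direction with the largest counting bound, up to 5 per list and direction with the largest bound, the 3 most abundant per list within 4-fold, all genes of the 60 pairs, and the pluripotency, DNA methylation and sex-linked lists. Chosen after their values were seen were Alox5ap, Ccl2, Ctsb, Dkk1, Dsp, Dusp4, Epcam, Fth1, Igf1r, Il1r1, Irf1, Irf7, Irf8, Isg15, Kitl, Lef1, Mcm3, Mest, Msh6, Mthfd1, Notum, Pdgfa, Rtl1, Shmt1, Wnt16, Wnt7a, Zscan4d, the basal epithelial genes and the genes shown in the figures of levels. A few genes that the rule names are not reported here. Positions came from GENCODE M21, which holds 33820 of the symbols, and promoter windows from RefSeq on GRCm38.p6. Without a stated strand setting, genes overlapping on opposite strands cannot be told apart, and close copies such as Lyz1 and Lyz2 can share reads. The computation was checked on simulated counts for 34970 genes, which held counting error only and no spread between libraries. In these, 100 of 100 genes made 8-fold higher and 100 of 100 made lower were recovered. There 0 unchanged genes were called, and 95.4% of intervals held the true ratio. Changes of 8-fold lie well past the 4-fold rule, so this gives no rate of false calls for libraries without replicates. Alternatives were DESeq2 1.42.0 size factors, total counts, TMM over both libraries alone, other filters, floors and gene sets.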

Additional observations from a re-analysis of the deposited data

How the results depend on the processing

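No paired analysis was possible because each group has 1 library and the labels carry no replicate numbers. For the same reason no library could be left out. Without a minimum level, 2451 genes were higher in MCC and 3242 in iPSC; at a minimum of 20 CPM there were 978 and 613. The genes tested numbered 34970 and 8962 in place of 12442. The balance moved too, since 43.1% of the differing genes were higher in MCC without a minimum and 61.5% at 20 CPM, in place of 53.7%. What moved it was not tested. Under the other settings, which were DESeq2 size factors, total counts, TMM over both libraries, the counting bound, a floor of 10 counts, and the removal of abundant, of predicted or of overlapping genes, the counts ran from 1161 to 1437 for MCC and from 1103 to 1613 for iPSC. The floor of 10 counts could not change a call, since 10 counts lie far below the minimum of 5 CPM. The removal of genes overlapping on opposite strands was chosen after seeing the data. Of 414 named genes past the rule 0 changed sign under the 3 other scalings. This was fixed in advance, since a scaling moves all log2 ratios by 1 amount, the largest -0.39, and these genes differ at least 4-fold. Of the 290 named genes not past the rule 36 changed sign under total counts, 6 under DESeq2 size factors and 1 under TMM over both libraries. DESeq2 size factors ended 3 calls and added 1; the 3, Fgf11, Hoxb13 and Hoxc13, fell below the minimum level with ratios still past 4-fold. Total counts ended 9 and added 19, and TMM over both libraries ended 0 and added 1. Beside those given above, total counts ended the calls of Cdkn2c, Fgf11, Hoxc8, Mxd4 and Zfp36l2.
The medians of 9 lists changed sign under a scaling: endoderm genes, integrins, the TGF-beta, BMP and Hedgehog pathways, SWI/SNF, histone deacetylases, the TCA cycle and the sex-linked genes. A count of 0 in MCC allows a level of up to 0.0694 CPM and in iPSC of up to 0.0574 CPM, for counting error only.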
